A study of Mus musculus with 12 samples.

Results

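The Ifi200 family, also called the HIN-200 family, is a group of interferon-inducible mouse genes that lie side by side on chromosome 1. Its members were taken by symbol and were Ifi203, Ifi204, Ifi205, Ifi207, Ifi209, Ifi211, Ifi213, Mnda and Mndal. Of these 9 names, 8 were found among the 55335 genes measured. No gene was listed as Mnda, and RefSeq gives Mnda as another name of Ifi211. RefSeq also gives Mndal among the names of Ifi203, although both are separate genes in the data.

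Bone marrow-derived macrophages (BMDMs) are grown in culture from the marrow of mice. Their RNA was sequenced in 12 libraries that formed 4 groups of 3. The groups were wild-type control, wild-type with LPS+ATP, Nlrp3-/- control and Nlrp3-/- with LPS+ATP, and the control groups had no stimulation. Lipopolysaccharide (LPS) is a bacterial ligand of TLR4 that primes the NLRP3 inflammasome, and extracellular ATP then triggers it. According to the labels, LPS lasted 4 hours and ATP 30 min, whereas in the methods LPS was given at 200 ng/ml for 12 hours and ATP at 3 mM for 2 hours, so the length of stimulation is not settled here. In the methods, donor mice were 8 weeks old, wild-type mice were C57BL/6, and marrow cells were cultured for 7 days. Nothing in the labels ties a library to an animal of its own, so p-values measure the spread between these samples, which may be technical.

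Nlrp3 itself, the gene targeted in the knockout, followed the genotype labels. It was at 9.24, 9.71 and 10.1 FPKM in the wild-type control libraries and at 32.1, 33.0 and 33.6 FPKM in the wild-type LPS+ATP libraries. In the 6 Nlrp3-/- libraries its value was 0 throughout. FPKM values are scaled by gene length and by mapped fragments, and so allow levels to be compared between genes. The libraries also differed by genotype in other ways. Xist, a transcript of the inactive X chromosome, was at 0.0416, 0.0195 and 0.0228 FPKM in wild-type control and at 56.3, 51.1 and 54.1 FPKM in Nlrp3-/- control libraries. With LPS+ATP it was at 0.00263, 0 and 0 FPKM in wild-type and at 33.7, 32.8 and 33.6 FPKM in Nlrp3-/- libraries. Of the Y chromosome, Ddx3y, Eif2s3y, Kdm5d and Uty each had a value of 0 throughout the Nlrp3-/- libraries and a value above 0 throughout the wild-type ones. Nnt, which differs between C57BL/6 substrains, was at 10.2, 7.67 and 10.3 FPKM in wild-type control and at 1.47, 1.17 and 0.827 FPKM in Nlrp3-/- control libraries. Its levels with LPS+ATP were 4.17, 4.09 and 4.42 FPKM in wild-type and 0.670, 1.04 and 0.969 FPKM in Nlrp3-/- libraries. Donor sex, substrain background and the loss of Nlrp3 therefore cannot be told apart in any genotype comparison given here.

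Within a group, Pearson's r of log2 values between libraries was 0.9897 to 0.993 over the 12622 genes tested, and no 2 replicates shared an identical value above 0 for a tested gene. The number of reads is unknown from FPKM. Relative depth, taken from ratios of the smallest values, ran from 1 to 1.22, and 21122 to 22613 genes were above 0 in a library.

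Most family proteins carry a HIN domain, which binds DNA, and most carry a pyrin domain, through which proteins of the same kind assemble. The best known relative of the members is Aim2, a receptor for DNA in the cytosol that recruits the adaptor Pycard and caspase-1, while Ifi204 has been linked to interferon production through Sting. In macrophages, LPS acts through TLR4 and the adaptor Ticam1 to induce interferon beta, which signals through its receptor to DNA letters called the interferon-stimulated response element (ISRE).

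The promoters of the family were searched because most members moved together and a single member, Ifi207, moved little. RefSeq promoters of build GRCm38.p6, each 300 bases long with 250 bases before the transcript start and 50 after it, were present for 7 of the 8 members, in 9 entries, and none was present for Ifi204. The letters AAANNGAAA, the centre of an ISRE, were searched on both strands. They were held by 8 of the 9 member entries, with at least 1 in each of these 7 members, and by 3466 of 32851 promoters of all genes (10.6%). The first entry of Ifi203 did not hold them. In the first and second entries of Mndal, 118 and 150 of the 150 bases before the start were annotated Mndal exon in GENCODE M21. The letters in its second entry began at base -54 from the start, on the opposite strand. The form searched first also required a G before these letters, and it was held by 6 of the 7 members, all but Ifi209, and by 1131 promoters (3.44%). The letters GGANTTTCC, the core of an NF-kB site, were held by 0 of the 7 members and by 1.25% of all promoters. Of 23 interferon-stimulated genes outside the family that had an entry, 18 held the ISRE letters.

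Shown here are stretches around the ISRE letters, which are in capitals, for members with large (Ifi205, Ifi213, Ifi211), middle (Ifi209, Ifi203) and small (Ifi207) responses and for Ifi208, which is close to Ifi213. All lie on chromosome 1 of GRCm38.p6, whereas the submitters name build GRCm39, and no base of them is in an annotated exon of GENCODE M21. They are Ifi205 (chr1:174031811-174031905, minus strand, inside the Ifi205 gene model), Ifi211 (chr1:173913047-173913196, minus strand, inside the Mndal gene model), Ifi207 (chr1:173741810-173741959, minus strand, between genes), Ifi203 from the second of its starts (chr1:173942493-173942642, minus strand, inside the Ifi203 gene model), Ifi213 (chr1:173599275-173599422, minus strand, inside the Ifi213 gene model), its relative Ifi208 (chr1:173673515-173673664, plus strand, between genes) and Ifi209 (chr1:173630709-173630858, plus strand, between genes).
Ifi205: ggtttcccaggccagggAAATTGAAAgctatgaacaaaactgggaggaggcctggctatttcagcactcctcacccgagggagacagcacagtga
Ifi211: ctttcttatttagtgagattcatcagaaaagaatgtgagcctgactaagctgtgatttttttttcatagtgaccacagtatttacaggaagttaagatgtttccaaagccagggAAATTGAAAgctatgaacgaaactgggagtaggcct
Ifi207: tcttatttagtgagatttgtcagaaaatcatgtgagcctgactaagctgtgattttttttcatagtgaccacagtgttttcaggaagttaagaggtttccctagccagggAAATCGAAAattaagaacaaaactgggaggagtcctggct
Ifi203: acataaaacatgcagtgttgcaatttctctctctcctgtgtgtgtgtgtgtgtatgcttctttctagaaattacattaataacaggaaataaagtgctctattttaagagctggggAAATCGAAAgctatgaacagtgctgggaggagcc
Ifi213: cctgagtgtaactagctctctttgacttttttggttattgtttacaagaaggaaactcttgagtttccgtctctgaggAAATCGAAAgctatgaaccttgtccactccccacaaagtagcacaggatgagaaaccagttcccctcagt
Ifi208: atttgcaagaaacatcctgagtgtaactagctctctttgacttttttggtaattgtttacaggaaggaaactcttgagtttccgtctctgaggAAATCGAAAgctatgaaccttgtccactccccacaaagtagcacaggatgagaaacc
Ifi209: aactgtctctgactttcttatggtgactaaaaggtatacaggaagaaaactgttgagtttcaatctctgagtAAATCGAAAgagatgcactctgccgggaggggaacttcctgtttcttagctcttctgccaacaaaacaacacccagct

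Measured from the transcript start, the ISRE letters began at base -40 in Ifi207, -36 in Ifi211, -34 in Ifi203, -35 in the first entry of Mndal, -72 in Ifi213, -57 in Ifi208 and -78 in Ifi209. In Ifi205 they began at -133, with a further match on the opposite strand at base 24. The last 55 bases before this RefSeq start of Ifi205 are annotated exon in GENCODE M21. The distance of -133 therefore depends on the start that is used. Ifi207 and Ifi211 shared 86.7% of their 300 bases, and Ifi208 and Ifi213 shared 94.0%. The second entry of Ifi203 and the first entry of Mndal also shared 94.0%. A match is a description of letters only, and binding of a factor was not measured.

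The members are also alike as transcripts, which limits how well their reads could be told apart. Of the windows of 100 bases in the annotated transcripts of Ifi211, 56.9% were also found in transcripts of other genes, 37.2% in those of Ifi205 and 19.6% in those of Ifi204. The share was 16.9% for Ifi209, all of it with Ifi214, 15.04% for Ifi205 and 10.7% for Ifi204. It was 6.38% for Mndal, 3.30% for Ifi213, 2.84% for Ifi203 and 0.790% for Ifi207. Ifi211 lies within the Mndal gene model on the same strand with 0 shared exon bases, and Mndal and Ifi203 share 37 exon bases. How the authors assigned reads that match several genes is not given in the sources used here, so the levels of Ifi211, Ifi209, Ifi205 and Ifi204 are uncertain to that extent.

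All 8 members passed the filter of at least 1 FPKM in at least 3 libraries. Of these, 7 were at or above 1 FPKM in all 12 libraries, and Ifi213 reached it in 9. In wild-type control BMDMs, Ifi207 had the highest level, 62.8 ± 2.91 FPKM (SD, n = 3), which was 34.6% of the family's summed FPKM. It was followed by Ifi204 at 34.7 ± 2.38 FPKM (SD, n = 3), Ifi211 at 28.9 ± 0.836 FPKM (SD, n = 3), Ifi209 at 20.5 ± 0.806 FPKM (SD, n = 3), Mndal at 18.9 ± 1.08 FPKM (SD, n = 3) and Ifi203 at 12.1 ± 0.602 FPKM (SD, n = 3). Ifi205, which has been tied to the expression of Pycard, and Ifi213 were far lower, at 2.39 ± 0.0420 FPKM (SD, n = 3) and 1.28 ± 0.155 FPKM (SD, n = 3). No neighbours in this order overlapped in their 3 libraries. The order of the members was the same in Nlrp3-/- control BMDMs, where only Ifi204 and Ifi211 overlapped.

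With LPS+ATP the order changed. In wild-type BMDMs Ifi211 came first at 403 ± 10.8 FPKM (SD, n = 3), 31.8% of the family sum, followed by Ifi209, Ifi204, Ifi205, Mndal and Ifi203, and no neighbours overlapped. Ifi207 stood in the place before the last, ahead of Ifi213, with 5.39% of the sum. In Nlrp3-/- BMDMs with LPS+ATP, Ifi211 again came first with 34.0% of the sum, Ifi204 stood ahead of Ifi209, and Ifi203 and Ifi207 overlapped.

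**Figure D1:**
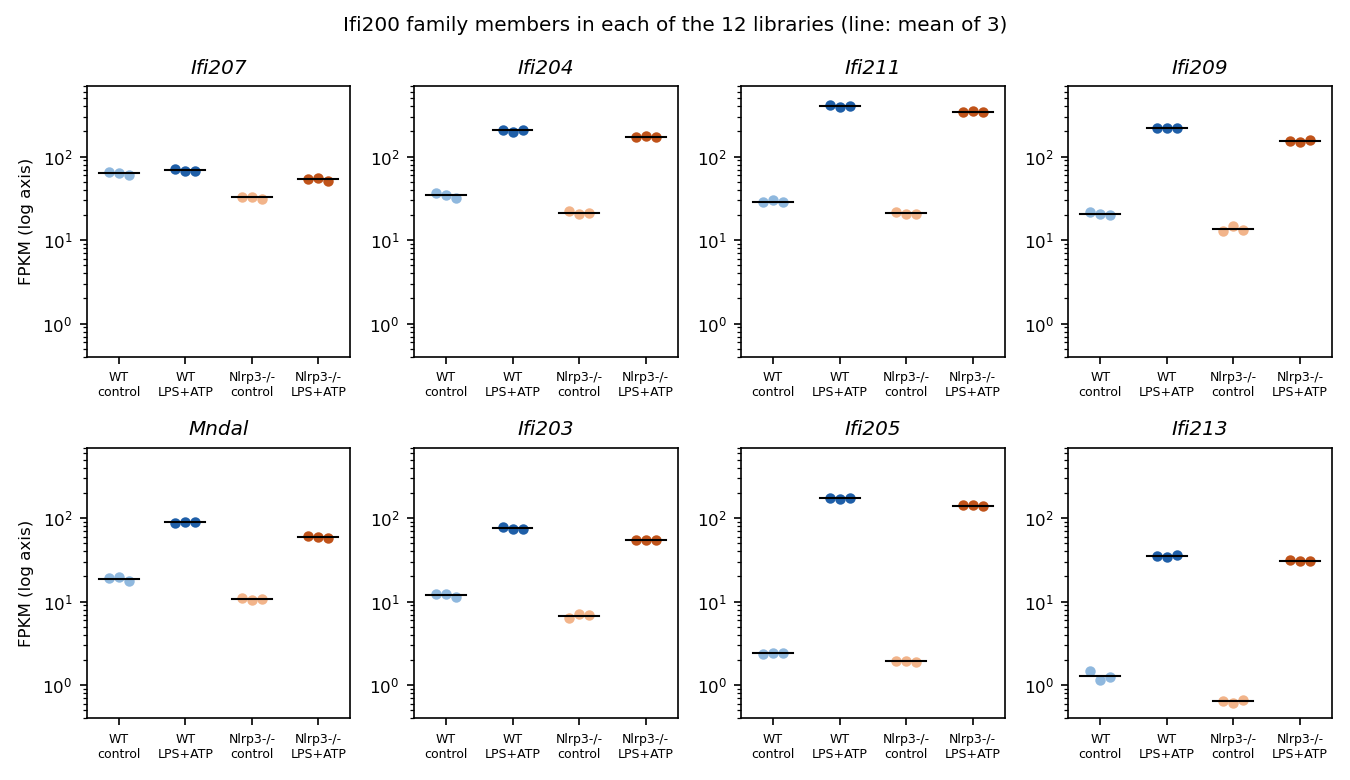
FPKM of each of the 8 members (log axis) in each library, by group, with the mean of 3 libraries marked. Ifi205 lay between 2.34 and 2.42 FPKM in wild-type control and between 168 and 176 FPKM in wild-type LPS+ATP libraries, whereas Ifi207 lay between 59.5 and 65.0 and between 66.9 and 71.3 FPKM.

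Stimulation of wild-type BMDMs raised 7 of the 8 members past both limits of a call, namely an adjusted p under 0.05 by limma together with an absolute log2 fold change no smaller than 1. Of all 12622 genes tested, 1041 (8.25%) were called higher by the same criteria. By adjusted p alone, 8 members were higher, against 23.3% of all genes. The median log2 fold change was 2.95 over the members and -0.25 over all genes tested. All fold changes refer to log2(FPKM + 1), and the added 1 makes those of genes with low FPKM too small.

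Ifi205 had the largest rise of the members. It was at 2.34, 2.40 and 2.42 FPKM in wild-type control libraries and at 176, 168 and 174 FPKM in wild-type LPS+ATP libraries. The ratio of the mean FPKM was 72.1, and the log2 fold change was 5.68 ± 0.03 (SE), with an adjusted p of 2.13e-16 by limma. It ranked 27 of 12622 genes by log2 fold change.

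Ifi213 was the lowest member without stimulation and was still the lowest with it. Its levels were 1.46, 1.16 and 1.242 FPKM in control and 35.4, 34.1 and 35.7 FPKM with LPS+ATP, a ratio of means of 27.3 and a log2 fold change of 3.98 ± 0.05 (SE). Ifi211 rose from 28.3, 29.9 and 28.7 FPKM to 412, 391 and 407 FPKM, with a log2 fold change of 3.75 ± 0.03 (SE), and thereby became the most abundant member. Ifi209 rose from 21.4, 20.3 and 19.9 FPKM to 219, 219 and 219 FPKM, with a log2 fold change of 3.35 ± 0.04 (SE). The control and stimulated libraries of each of these members were far apart.

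The remaining members that were called rose less. Ifi203 was at 12.4, 12.5 and 11.4 FPKM in control and at 78.2, 74.7 and 74.6 FPKM with LPS+ATP, with a log2 fold change of 2.56. Ifi204 was at 36.9, 35.0 and 32.2 FPKM in control and at 211, 199 and 209 FPKM with LPS+ATP, with a log2 fold change of 2.54. Mndal was at 19.3, 19.6 and 17.6 FPKM in control and at 86.6, 90.4 and 90.3 FPKM with LPS+ATP, with a log2 fold change of 2.18. The adjusted p of the 7 called members ranged from 2.13e-16 to 2.74e-12 by limma, and they ranked between 27 and 336 of 12622 genes.

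Ifi207 stood apart from the other members. Its levels were 65.0, 63.9 and 59.5 FPKM in wild-type control and 71.3, 66.9 and 67.1 FPKM in wild-type LPS+ATP libraries, so that the groups lay side by side without overlap. The log2 fold change was 0.12 ± 0.05 (SE; 95% interval 0.02 to 0.22), with an adjusted p of 0.02819 by limma, and the rank was 3385. Whether this small rise passed depended on single libraries: without wild-type control replicate 3 the log2 fold change was 0.09 (adjusted p = 0.1162), and without wild-type LPS+ATP replicate 1 it was 0.09 (adjusted p = 0.1093). With no filter on low values the adjusted p was 0.05345. The log2 fold change was 0.30 after upper-quartile and 0.45 after median-ratio scaling. Over 21 alternatives the adjusted p of Ifi207 ranged from 3.93e-06 to 0.1162. The promoter printed for Ifi207 and that of Ifi211 hold the ISRE letters at nearly the same distance from the start, while their log2 fold changes were 0.12 and 3.75.

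Scaling of the libraries bears on the size of these changes. The median log2 fold change of all genes was shifted by median-ratio scaling, by 0.25 in the wild-type stimulation comparison and by 0.23 in the Nlrp3-/- one, and upper-quartile scaling shifted it by 0.13 and 0.10. For wild-type BMDMs and FPKM as deposited, 1041 genes were called higher after stimulation and 1411 lower, whereas the split was 1220 and 1087 after upper-quartile scaling and 1400 and 878 after median-ratio scaling. Ifi207 lay 0.38 above the median of all genes with FPKM as deposited, 0.42 above it after upper-quartile scaling and 0.46 above it after median-ratio scaling. Ifi205 lay 5.93, 5.97 and 5.99 above that median in the same order. The 8 members were higher by adjusted p alone under each of these scalings.

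In Nlrp3-/- BMDMs, stimulation also raised 7 of the 8 members past both limits by limma, against 838 of all genes (6.64%), and 8 by adjusted p alone, against 20.6%. The median log2 fold change was 3.18 over the members and -0.24 over all genes. With FPKM as deposited, 838 genes were called higher and 1036 lower in this comparison. The split was 932 and 802 after upper-quartile scaling and 1094 and 605 after median-ratio scaling.

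Ifi205 rose from 1.97, 1.96 and 1.90 FPKM in Nlrp3-/- control libraries to 142, 142 and 139 FPKM with LPS+ATP, a ratio of means of 72.6 and a log2 fold change of 5.59 ± 0.03 (SE). Ifi213 was at 0.636, 0.617 and 0.657 FPKM in control and at 31.8, 30.2 and 30.8 FPKM with LPS+ATP, with a log2 fold change of 4.29. Ifi211 was at 21.4, 20.3 and 20.7 FPKM in control and at 339.9, 349 and 339 FPKM with LPS+ATP, with a log2 fold change of 3.98. These 3 members had the largest rises in Nlrp3-/- BMDMs, as they had in wild-type BMDMs.

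Ifi209 was at 13.0, 14.7 and 13.3 FPKM in control and at 153, 150.2 and 158 FPKM with LPS+ATP, with a log2 fold change of 3.40. Ifi204 rose from 22.1, 20.5 and 21.3 FPKM to 173, 175 and 169.7 FPKM, with a log2 fold change of 2.96. The adjusted p of the 7 called members was at most 1.9e-12 by limma. Ifi203 rose from 6.35, 7.07 and 6.98 FPKM to 54.4, 54.5 and 54.8 FPKM, with a log2 fold change of 2.83. Mndal rose from 11.04, 10.4 and 10.7 FPKM to 60.7, 60.1 and 57.0 FPKM, with a log2 fold change of 2.36.

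Ifi207 was again the exception, but it did rise. Control Nlrp3-/- libraries held it at 33.2, 32.8 and 31.2 FPKM, and LPS+ATP libraries of that genotype at 54.0, 55.4 and 51.1 FPKM. The ratio of means was 1.65, compared with 1.09 in wild-type BMDMs, and the log2 fold change was 0.71 ± 0.05 (SE), with an adjusted p of 7.91e-08 by limma.

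The summed FPKM of the 8 members was 187, 185 and 173 in wild-type control and 1289, 1242 and 1276 in wild-type LPS+ATP libraries. In Nlrp3-/- libraries the sum was 109.8, 108 and 107 in control and 1009, 1016 and 999 with LPS+ATP. As a share of all FPKM, the family went from 0.0610% to 0.440% in wild-type and from 0.0365% to 0.355% in Nlrp3-/- BMDMs. Ifi207 supplied 34.6% of the wild-type sum without stimulation and 5.39% with it, while the share of Ifi211 went from 15.9% to 31.8%. All 8 members had stimulated libraries above every control library in both genotypes, a separation that 23.9% of all genes tested showed in wild-type and 21.8% in Nlrp3-/- BMDMs.

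**Figure D2:**
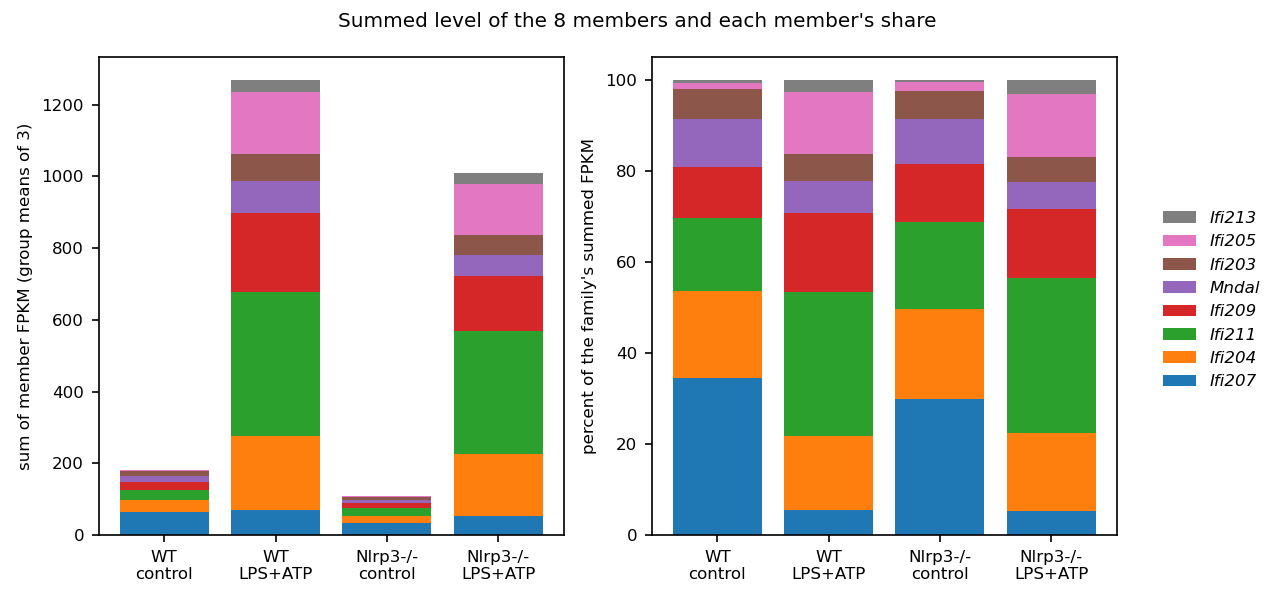
Left, summed FPKM of the 8 members in each group, stacked by member (group means of 3 libraries), and right, the share of each member in percent of that sum. The sum was 182 FPKM in wild-type control, 1269 in wild-type LPS+ATP, 108 in Nlrp3-/- control and 1008 in Nlrp3-/- LPS+ATP BMDMs, and Ifi207 had the largest share of both control sums.

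The other family genes of the locus were compared in the same way. Of 5 tested genes of the list, Aim2, Ifi203-ps, Ifi206, Ifi208 and Ifi214, 4 were called higher by limma with stimulation in each genotype and 0 lower. Of all genes, 8.25% were called higher in wild-type and 6.64% in Nlrp3-/- BMDMs. Among the 4 locus genes called, Ifi208 and Ifi214 reached 1 FPKM only in the 6 LPS+ATP libraries and so entered the test through the groups where they were high. Their calls were partly set by that filter, and no conclusion is drawn from them. Pydc3, Pydc4 and Pyhin1 had no entry of their own and are given by RefSeq as other names of Ifi208, Ifi213 and Ifi209. Ifi206 was at 2.64, 2.74 and 2.70 FPKM in wild-type control and at 176, 176 and 175 FPKM in wild-type LPS+ATP libraries, and it was at 1.08, 1.38 and 1.18 and at 133, 134 and 127 FPKM in the matching Nlrp3-/- libraries. Its log2 fold changes, 5.58 and 5.90, were close in size to those of Ifi205. Ifi202b, which lacks a pyrin domain, was listed at 0 in all 6 control libraries and was too low to be tested, with 0.403, 0.629 and 0.832 FPKM in wild-type and 0.0513, 0.263 and 0.0721 FPKM in Nlrp3-/- LPS+ATP libraries.

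Aim2 was the tested locus gene that was not called. It was at 8.61, 6.66 and 8.04 FPKM in wild-type control and at 8.93, 7.95 and 7.64 FPKM in wild-type LPS+ATP libraries, which overlapped. In Nlrp3-/- libraries it was at 5.99, 6.88 and 6.59 FPKM in control and at 6.84, 6.35 and 5.49 FPKM with LPS+ATP, which also overlapped. The log2 fold change with stimulation was 0.07 (adjusted p = 0.5301 by limma) in wild-type and -0.05 (adjusted p = 0.6332) in Nlrp3-/- BMDMs. Aim2 stands at the edge of the cluster next to Cadm3, and neither the ISRE letters nor the NF-kB letters were found in its promoter. The NF-kB letters were also absent from all 7 members with a promoter entry. The ISRE letters were also absent from the promoter of Ifi202b, which was above 0 only in LPS+ATP libraries.

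Along the chromosome the order is Cadm3, Aim2, Ifi206, Ifi214, Ifi213, Ifi209, Ifi208, Ifi207, Ifi204, Ifi203-ps, Mndal, Ifi211, Ifi203, Ifi202b, Ifi205 and Olfr433, leaving out other pseudogenes and a tRNA gene. Ifi207 lies in the middle, between Ifi208 and Ifi204, whose log2 fold changes in wild-type BMDMs were 3.94 and 2.54. Ifi208 entered the test through the LPS+ATP libraries, where it was high, so no conclusion is drawn from its rise. The flanking genes Ackr1, Cadm3 and Olfr433 reached at most 0.982, 0.193 and 0.545 FPKM and were not tested.

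**Figure D3:**
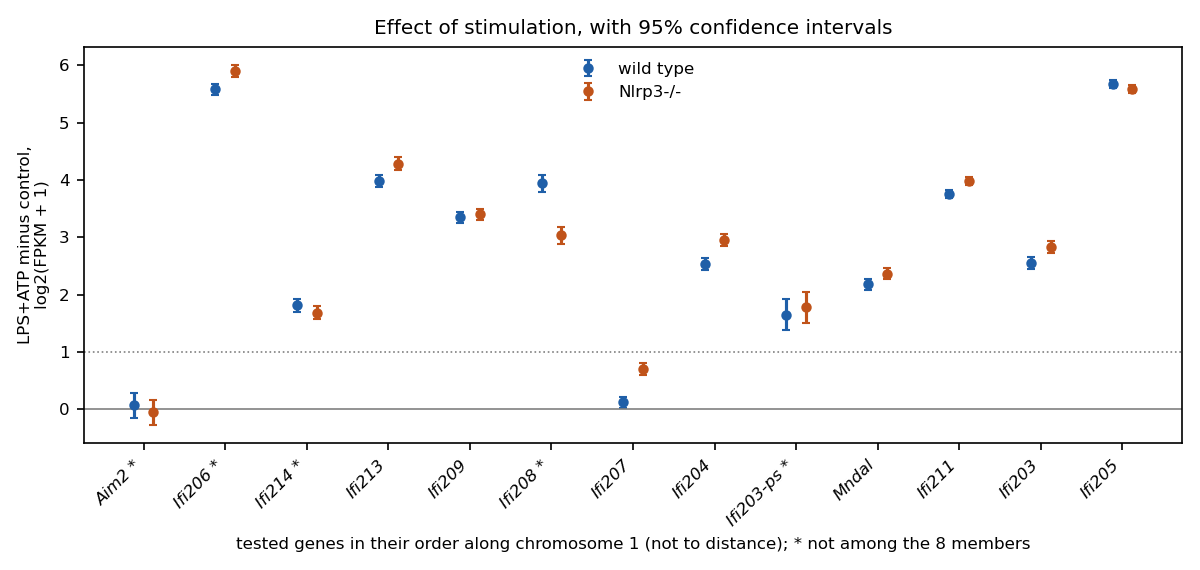
Log2 fold change with LPS+ATP on the log2(FPKM + 1) scale (vertical axis, with 95% intervals) of the tested family genes in their order along chromosome 1 (horizontal axis, not to scale), in wild-type and Nlrp3-/- BMDMs. Ifi205 (5.68 in wild-type) and Ifi206 (5.58) were highest, and Aim2 (0.07) and Ifi207 (0.12) lay near 0.

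The genotype comparison without stimulation asked whether the family differed before any ligand was given. All 8 members were lower in Nlrp3-/- than in wild-type control BMDMs by adjusted p alone, against 14.5% of all genes tested, and the libraries of both genotypes did not overlap for any of the 8, a separation in this direction that 18.0% of all genes showed. None passed the fold limit: 0 of 8 members were called lower by limma, against 87 of all genes (0.689%), and 8 were lower at an unadjusted p under 0.05, against 16.7% of all genes. The median log2 fold change was -0.62 over the members and 0.09 over all genes. Median-ratio scaling moved the median of all genes by -0.12, and the 8 members were lower by adjusted p alone under that scaling and after upper-quartile scaling.

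On the log2(FPKM + 1) scale Ifi207 had the largest difference of the members, with levels in Nlrp3-/- control libraries at 51.6% of those in wild-type. By percent of wild-type alone, Ifi213 was lower, at 49.6%. The libraries given above put Ifi207 between 59.5 and 65.0 FPKM in wild-type and between 31.2 and 33.2 FPKM in Nlrp3-/- control BMDMs. The log2 fold change of Ifi207 was -0.93 ± 0.05 (SE), with an adjusted p of 1.95e-08 by limma. It just passed the fold limit after upper-quartile scaling and reached -1.08 after median-ratio scaling, so that 1 of 8 members was called lower there. Of all genes, 101 were called lower after upper-quartile and 129 after median-ratio scaling. Relative to the median of all genes, it lay at -1.02 with FPKM as deposited, -1.03 after upper-quartile scaling and -1.05 after median-ratio scaling.

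Levels of Mndal, Ifi203 and Ifi204 in Nlrp3-/- control BMDMs were 56.7%, 56.3% and 61.4% of those in wild-type, with log2 fold changes of -0.76, -0.74 and -0.68. Ifi209 was at 66.4%, Ifi211 at 71.9% and Ifi213 at 49.6%, with log2 fold changes of -0.56, -0.46 and -0.48. Ifi205 differed least, at 81.3% and -0.20 (adjusted p = 0.000199 by limma). The adjusted p of the other members was at most 1.1e-05. Counted from the most negative log2 fold change, Ifi207 ranked 113, Mndal 201 and Ifi203 214 of 12622 genes.

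With LPS+ATP, all 8 members were again lower in Nlrp3-/- BMDMs by adjusted p alone, against 12.6% of all genes, and did not overlap, against 16.2% of all genes. Called lower past the fold limit by limma were 0 of 8, against 72 of all genes (0.570%), and 8 were lower at an unadjusted p under 0.05, against 14.6% of all genes. The median log2 fold change was -0.32 over the members and 0.11 over all genes, and median-ratio scaling moved the latter by -0.15. Mndal had the largest difference, -0.58 ± 0.04 (SE), with levels at 66.5% of wild-type, followed by Ifi209 at -0.50 and Ifi203 at -0.47. Ifi207 was at -0.35, Ifi205 at -0.29, Ifi204 at -0.26 and Ifi211 at -0.23. The smallest was that of Ifi213, -0.18 (adjusted p = 0.01347 by limma), and it was lost without Nlrp3-/- LPS+ATP replicate 2 (adjusted p = 0.0506), with a pseudocount of 0.1 (0.05936) and with TPM (0.06906). Over 21 alternatives the adjusted p of Ifi213 ranged from 8.44e-05 to 0.06906.

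**Figure D4:**
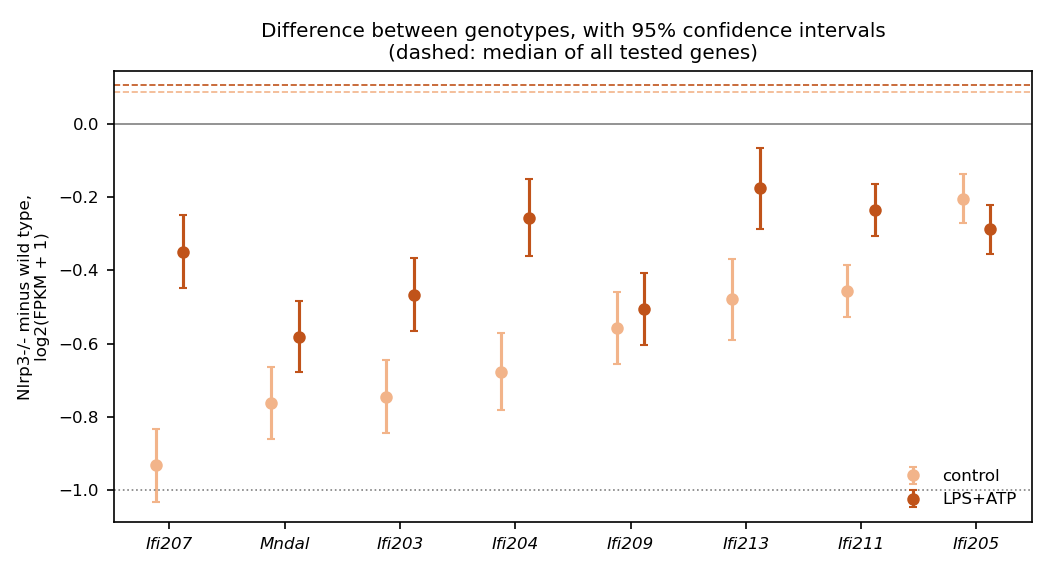
Log2 fold change between Nlrp3-/- and wild-type BMDMs on the log2(FPKM + 1) scale, with 95% intervals, for each of the 8 members, in control and with LPS+ATP. All values lie below 0, from -0.93 for Ifi207 in control to -0.18 for Ifi213 with LPS+ATP, and this direction held under each scaling tried.

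Markers of other cell types moved with genotype as well. Of 6 fibroblast markers, 5 were called higher by limma in Nlrp3-/- control BMDMs and 4 with LPS+ATP. Of all 12622 genes tested, 760 were called higher in Nlrp3-/- control BMDMs and 565 with LPS+ATP. Their summed FPKM was 157, 162 and 159.8 in wild-type control, 181, 183 and 182 in wild-type LPS+ATP, 1175, 1182 and 1165 in Nlrp3-/- control and 898, 891 and 907 in Nlrp3-/- LPS+ATP libraries, with Col1a1 the most abundant gene. Of 8 markers of neutrophils and their precursors, 7 were tested. Of these, 7 were called higher in Nlrp3-/- control BMDMs and 4 with LPS+ATP, against the same 760 and 565 of all genes. Their summed FPKM was 331, 353 and 367 in wild-type control and 1830.4, 1782 and 1785 in Nlrp3-/- control libraries. With LPS+ATP it was 331, 342 and 328 in wild-type and 703, 706 and 711 in Nlrp3-/- libraries. S100a9 was the most abundant in every group except wild-type LPS+ATP, where Lcn2 was, at 218 ± 3.89 FPKM (SD, n = 3).

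The macrophage list of 8 symbols (9 gene entries, since Itgam had 2) summed to 19974, 21159 and 21123 FPKM in wild-type control and 19071, 19281 and 19319 FPKM in Nlrp3-/- control libraries, with Lyz2 the most abundant. With LPS+ATP the sums were 11793, 11794 and 11862 FPKM in wild-type and 11179, 11366 and 11118 FPKM in Nlrp3-/- libraries. By adjusted p alone, 5 of the 9 entries were lower in Nlrp3-/- control and 4 with LPS+ATP, against 14.5% and 12.6% of all genes. In control the log2 fold changes of the 9 entries ran from -0.73 (Cd68) to 0.07 (Mertk), with a median of -0.27, and Lyz2 was at 95.8% of wild-type. Erythroid markers summed to 0.706, 0.901 and 0.828 FPKM in wild-type control and 9.45, 6.56 and 8.61 FPKM in Nlrp3-/- control libraries, and Hbb-bs and Hbb-bt were called higher in Nlrp3-/- control BMDMs, though both reached 1 FPKM, and so entered the test, only in Nlrp3-/- libraries. With LPS+ATP these sums were 1.71, 2.00 and 0.931 FPKM in wild-type and 2.37, 2.83 and 3.23 FPKM in Nlrp3-/- libraries, while Gata1 on this list was lower in Nlrp3-/- BMDMs by adjusted p alone (-0.41). B cell markers summed to 1.57, 1.31 and 1.25 FPKM in wild-type control and 5.11, 4.74 and 4.08 FPKM in Nlrp3-/- control libraries, and dendritic cell markers, of which Ccr7 made up 81.7% and was the only gene tested, to 0.971, 1.13 and 0.738 FPKM and 2.16, 2.89 and 2.28 FPKM. With LPS+ATP the B cell sums were 0.461, 0.855 and 0.610 FPKM in wild-type and 1.85, 1.90 and 2.02 FPKM in Nlrp3-/- libraries, and the dendritic cell sums 2.28, 3.59 and 2.69 FPKM and 4.80, 5.49 and 5.11 FPKM. Sums of T cell markers reached at most 0.509 FPKM, and those of endothelial markers lay between 6.19 and 11.3 FPKM. Among the latter, Cdh5 was called higher by limma in Nlrp3-/- control BMDMs (1.30), whereas Vwf was lower by adjusted p alone (-0.62). No marker on any of these lists was at 0 in every library. The part of other cells in the lower family levels was not tested, and in bulk RNA fewer cells of a type and less RNA per cell cannot be told apart.

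The interaction asks whether stimulation changed a member by a different amount in each genotype. The term was positive for 7 of the 8 members, so that the log2 rise was larger in Nlrp3-/- BMDMs, and it passed adjusted p alone for 5 of them, against 14.7% of all genes in that direction. Past the fold limit, 0 of 8 were called by limma, against 271 of all genes in either direction (2.15%), and 6 had a positive term at an unadjusted p under 0.05, against 20.9% of all genes. The median term was 0.25 over the members and 0.02 over all genes. Markers of other cells had interaction terms as well. Of 7 tested neutrophil markers, 3 were called negative by limma, down to -3.58 for Mpo, and of 3 erythroid ones 2 were. Of all genes, 180 were called negative. Mpo reached 1 FPKM only in the 6 control libraries and so entered the test through the groups where it was high. The 2 erythroid genes, Hbb-bs and Hbb-bt, reached it only in Nlrp3-/- libraries. The terms of these genes were partly set by that filter, and no conclusion is drawn from them. Of 6 fibroblast markers, 4 were negative by adjusted p alone. Of 9 macrophage entries, 3 were positive and 3 negative by adjusted p alone. Positive terms by adjusted p alone were found for 14.7% of all genes. At an unadjusted p under 0.05, a looser limit, 17.4% of all genes had a negative term. The part of other cells in the members' terms was not tested.

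On the log2(FPKM + 1) scale Ifi207 had the largest term, 0.58 ± 0.06 (SE), with an adjusted p of 6.06e-05 by limma. Its levels in Nlrp3-/- BMDMs were 51.6% of wild-type without stimulation and 78.2% with it. Ifi204 followed with 0.42 (adjusted p = 0.00087), going from 61.4% to 83.7%. Ifi213 (0.30, adjusted p = 0.008492), Ifi203 (0.28, adjusted p = 0.007719) and Ifi211 (0.22, adjusted p = 0.004189) also passed. By ratio of means, Ifi213 differed most between the genotypes among the members, with 27.3 in wild-type and 48.6 in Nlrp3-/- BMDMs, so the order of the members depends on the added 1. The term of Ifi213 no longer passed after median-ratio scaling (0.16, adjusted p = 0.1149), and over 20 alternatives its adjusted p ranged from 0.000399 to 0.1149.

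Ifi209 and Ifi205 showed no such term. Ifi209 was at 66.4% of wild-type without stimulation and at 70.4% with it, a term of 0.05 (95% interval -0.09 to 0.19). Ifi205 was at 81.3% and 81.8%, a term of -0.08 (adjusted p = 0.1824 by limma), which passed as a negative term after upper-quartile scaling (-0.16, adjusted p = 0.02008) and median-ratio scaling (-0.18, adjusted p = 0.009279). Its adjusted p ranged from 0.009279 to 0.9617 over 20 alternatives. Mndal had a term of 0.18 (adjusted p = 0.05332), which passed without wild-type control replicate 3 (0.01303) and without Nlrp3-/- LPS+ATP replicate 3 (0.0421). It also passed with a pseudocount of 0.1 (0.02879), a filter of 5 FPKM (0.04466) and TPM (0.02705), and over 20 alternatives its adjusted p ranged from 0.01303 to 0.1595.

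Outside the members, Ifi208 went the other way on the log2(FPKM + 1) scale. It was at 0.551, 0.316 and 0.274 FPKM in wild-type control and at 20.4, 19.9 and 20.2 FPKM in wild-type LPS+ATP libraries. In Nlrp3-/- libraries it was at 0.0560, 0.0688 and 0.0257 FPKM in control and at 7.57, 7.85 and 7.39 FPKM with LPS+ATP, far below every stimulated wild-type library. Its interaction term was -0.91 ± 0.10 (SE), with an adjusted p of 4.64e-05 by limma, and with LPS+ATP it was the only family gene called lower in Nlrp3-/- BMDMs (-1.30). On the ratio scale the order was reversed, with 53.0 for wild-type and 152 for Nlrp3-/- BMDMs. All its control levels were under 1 FPKM, where the added 1 weighs most. The promoters of Ifi208 and Ifi213 share 94.0% of their bases, and although their terms on the log2(FPKM + 1) scale had opposite signs, by ratio of means both rose more in Nlrp3-/- BMDMs (27.3 and 48.6 for Ifi213).

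Genotype was also compared for the other tested genes of the locus. In control BMDMs, 0 of 5 were called lower or higher by limma. Of the 5, 4 had an unadjusted p under 0.05, as did 53.7% of all genes. By adjusted p alone, 3 (Ifi203-ps, Ifi206 and Ifi208) were lower, against 14.5% of all genes. Ifi208 was under 1 FPKM in every control library and entered the test through the LPS+ATP libraries. No conclusion is drawn from its control difference. Ifi203-ps, a pseudogene, was at 2.81, 2.10 and 1.78 FPKM in wild-type and at 0.675, 0.834 and 0.752 FPKM in Nlrp3-/- control libraries, with a log2 fold change of -0.87. Ifi206 had a log2 fold change of -0.74. Ifi214 was at 0.0460, 0.0234 and 0.0346 FPKM in wild-type and at 0.0276, 0.0226 and 0 FPKM in Nlrp3-/- control libraries, too low for its log2(FPKM + 1) difference to be informative. With LPS+ATP, 1 of 5 was called lower, Ifi208, against 0.570% of all genes. By adjusted p alone all 5 were lower, against 12.6% of all genes, among them Aim2 at -0.35 (adjusted p = 0.01186 by limma). For the interaction, 0 of 5 were called by limma and 2 had an unadjusted p under 0.05, as did 38.3% of all genes, namely Ifi206 (0.33) and Ifi208 (-0.91).

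Interferon-stimulated genes outside the family rose further than the members by their medians. Of 29 tested genes on this list of 30, 29 were called higher by limma with stimulation in each genotype, with a median log2 fold change of 4.46 in wild-type and 4.85 in Nlrp3-/- BMDMs. Of all genes, 8.25% were called higher in wild-type and 6.64% in Nlrp3-/- BMDMs. The chemokine Cxcl10 had the largest rise, 7.30 and 7.75. The smallest were those of Oas2 in wild-type (1.72) and Ddx58, the RNA sensor RIG-I, in Nlrp3-/- BMDMs (2.60), so that Ifi207 lay below all 29 in both genotypes. Ifi44l was at 0 in every library and was not tested.

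Without stimulation, 25 of the 29 were lower in Nlrp3-/- BMDMs by adjusted p alone and 2 higher, with a median log2 fold change of -0.53. Of all genes, 14.5% were lower by adjusted p alone. Past the fold limit, 4 were called lower by limma and 0 higher, while 0.689% of all genes were called lower. These 4, named after their values were seen, were the antiviral genes Oas3 (-1.13), Ifit3 (-1.11), Rsad2 (-1.08) and Ifit2 (-1.06), while Gbp2 had the largest rise (0.30). With LPS+ATP, 12 were lower and 3 higher by adjusted p alone, with a median of -0.12. Of all genes, 12.6% were lower by adjusted p alone and 0.570% were called lower in this state. Rsad2 (-1.23) and Cmpk2 (-1.18) were called lower, and Ifit3b had the largest rise (0.83). The interaction term passed adjusted p alone as positive for 20 of the 29 and as negative for 3, with a median of 0.29, and it was called for Ifit3b (1.53), Ifit3 (1.41) and Isg20 (-1.13). Of all genes, 14.7% had a positive term by adjusted p alone, and 2.15% were called in either direction.

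**Figure D5:**
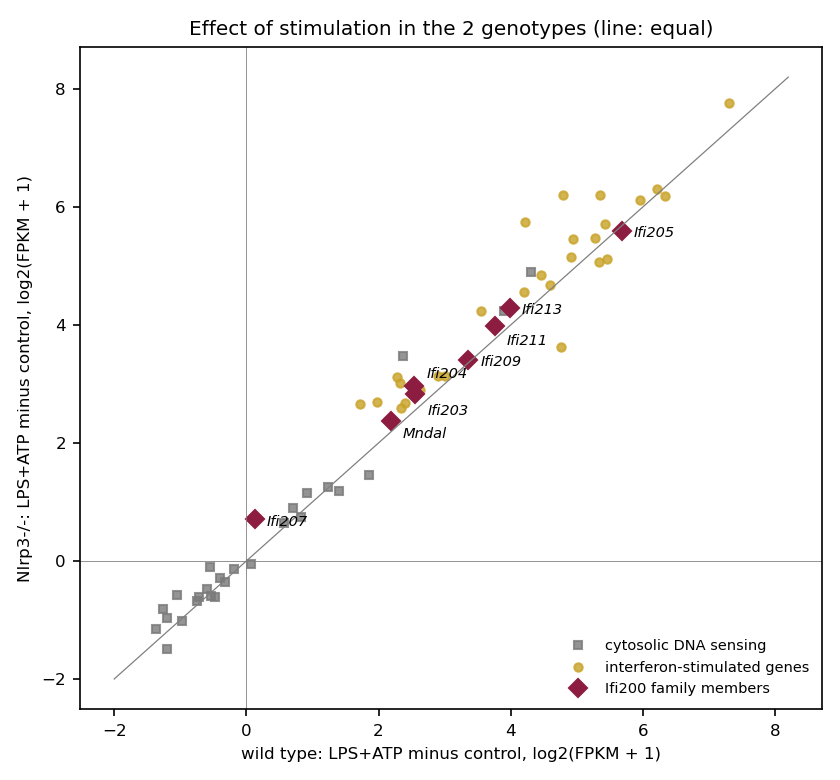
Log2 fold change with LPS+ATP on the log2(FPKM + 1) scale in wild-type (horizontal axis) and Nlrp3-/- BMDMs (vertical axis) for the 8 members, interferon-stimulated genes and DNA sensing genes, each point a gene. Genes in both lists, such as Irf7, are drawn with DNA sensing, and Ifi207 lies at 0.12 and 0.71.

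The list of the route from LPS to interferon-stimulated genes had 19 of 21 genes tested. With stimulation, 7 were called higher by limma and 1 lower in wild-type, and 8 higher and 1 lower in Nlrp3-/- BMDMs. Of all genes, 1041 were called higher and 1411 lower in wild-type, and 838 and 1036 in Nlrp3-/- BMDMs. Socs1, counted as higher in both, reached 1 FPKM only in the 6 LPS+ATP libraries and so passed the filter through them. Usp18, which restrains the interferon receptor, had the largest rise in wild-type (4.46), Irf7 had the largest in Nlrp3-/- BMDMs (4.90), and the interferon gamma receptor chain Ifngr1 fell in both (-2.12 and -1.67). Ifnb1 itself was at 0 in all wild-type control libraries and at 0.407, 0.292 and 0.708 FPKM with LPS+ATP. In Nlrp3-/- libraries it was at 0, 0 and 0.103 FPKM in control and at 0.737, 0.676 and 0.694 FPKM with LPS+ATP, and like Ifna4 it was too low to be tested. By genotype, 0 were called in control, where 10 had an unadjusted p under 0.05 (53.7% of all genes), and 0 with LPS+ATP, where 13 did (54.3% of all genes). The extremes were Socs3 (0.93) and Irf7 (-0.90) in control. With LPS+ATP they were Ifngr1 (0.54) and Tlr4, whose value of -0.82 did not pass (adjusted p = 0.3146 by limma). The interaction was called for Socs3 alone (-1.17), and the largest positive term was that of Irf7 (0.60).

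Genes of cytosolic DNA sensing, to which several family proteins are assigned, moved in both directions. Of 26 tested, 6 were called higher by limma and 5 lower with stimulation in wild-type, and 7 higher and 3 lower in Nlrp3-/- BMDMs. Of all 12622 genes, 1041 (8.25%) were called higher and 1411 lower in wild-type, and 838 (6.64%) and 1036 in Nlrp3-/- BMDMs. The transcription factor Irf7 rose most, by 4.30 and 4.90. Pycard, the adaptor of Aim2, fell most in wild-type (-1.36), from 13.9 ± 1.11 FPKM (SD, n = 3) to 4.80 ± 0.228 FPKM (SD, n = 3), followed by Hmgb1 (-1.26), Nlrc3 (-1.20), Xrcc5 (-1.20) and Enpp1 (-1.04), named after their values were seen. Nlrc3 reached 1 FPKM only in the 6 control libraries and so entered the test through the groups where it was high. In Nlrp3-/- BMDMs the DNA repair gene Xrcc5 fell most (-1.48), followed by Pycard (-1.16) and Lrrfip1 (-1.01). By genotype, Xrcc5 was the only gene of this list called higher by limma in control (1.31) and with LPS+ATP (1.03). Of all genes, 760 were called higher in control and 565 with LPS+ATP, and 87 and 72 lower. The DNA exonuclease Trex1 alone was called lower in control (-1.39), 0 were called lower with LPS+ATP, and Casp1 had the lowest value with LPS+ATP (-0.72). The interaction was called only for Trex1 (1.10), whose Nlrp3-/- control libraries were spread at 10.96, 15.8 and 6.04 FPKM, and the most negative term was that of Casp1 (-0.40).

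The members followed each other across the 12 libraries to different degrees. Pearson's r between a member and the mean of the other members was 0.999 for Ifi203, 0.997 for Mndal, 0.970 for Ifi205 and 0.627 for Ifi207. The highest r between members was 0.999, for Ifi211 and Ifi213, and the lowest 0.536, for Ifi205 and Ifi207. These values are descriptions over 12 libraries that form 4 separate groups and share the stimulation. The 5 tested genes most like the members' mean, by the same measure, were Psme2b (0.999), Sp100 (0.999), Oas3 (0.999), Trim30a (0.999) and Plek (0.998). Psme2b, a subunit of the proteasome activator, had a mean of 20.2 FPKM in wild-type control, 57.3 in wild-type LPS+ATP, 13.9 in Nlrp3-/- control and 48.9 in Nlrp3-/- LPS+ATP BMDMs. Of the 12622 tested genes, 66 had an r over 0.99 and 535 over 0.95.

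Among all tested genes with a promoter entry, 8886 in number, 680 (7.65%) were called higher with stimulation in wild-type BMDMs. Of the 891 of these genes that held the ISRE letters, 147 (16.5%) were called higher, and of the 156 that held the NF-kB letters, 29 (18.6%). No test was made of these differences.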

How the data were processed

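The authors deposited FPKM per gene for 12 BMDM libraries, with no further scaling stated. The submitters' processing notes name GRCm39 and DESeq2 1.24.0, and the aligner is not given in the sources used here. 0 columns were unused. Groups and replicate numbers came from the labels. The members and lists were chosen with earlier results of these data known. A gene entered the test when 3 or more libraries reached 1 FPKM, which left 12622 of 55335. The model, limma 3.58.1 in R 4.3.3, took log2(FPKM + 1), estimated 4 group means in 1 fit with a variance trend, and was tried out on simulated data. Stimulation was compared in each genotype, genotype in each state, and the interaction. For a call, p adjusted by Benjamini-Hochberg had to be under 0.05 and the absolute log2 fold change no smaller than 1. Named were all members, list extremes, markers, sex and substrain genes, and the 5 genes most like the members. Marker lists covered macrophages, fibroblasts, neutrophils, dendritic, B, T, erythroid and endothelial cells. Alternatives changed the pseudocount (0.1), the filter (none, or 5 FPKM), the fold limit (none), the unit (TPM), the scaling (upper-quartile, median-ratio), the model (replicate as a block, constant variance prior, only the groups compared) and the libraries, each left out in turn. Promoters came from RefSeq (GRCm38.p6), transcripts and gene models from GENCODE M21 (GRCm38). The motif letters were settled after longer forms had been searched. A further motif was also searched, and its result is not given here. Python 3.11.15 with pandas 2.3.3, numpy 2.4.6, Biopython 1.88 and matplotlib 3.10.9 made the tables and figures.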

Additional observations from a re-analysis of the deposited data

Results flagged for a closer look

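The response to LPS+ATP differed between the genotypes by limma's interaction term, at an adjusted p under 0.05, for the genes given here and for others named in the report. Among the members the terms were 0.28 for Ifi203, 0.42 for Ifi204, 0.58 for Ifi207, 0.22 for Ifi211 and 0.30 for Ifi213, all with the larger rise in Nlrp3-/- BMDMs. At the same locus the term was 0.33 for Ifi206 and -0.91 for Ifi208, whose ratio of means was instead larger in Nlrp3-/- BMDMs. All control levels of Ifi208 were under 1 FPKM, where the added 1 weighs most. The direction in which its response differed is therefore not settled. Among DNA sensing and route genes it was -0.40 for Casp1, 0.60 for Irf7, 1.10 for Trex1, 0.45 for Ifngr1, -1.17 for Socs3 and 0.39 for Usp18. Among interferon-stimulated genes it was 0.46 for Cxcl10, 0.26 for Ddx58, -0.27 for Gbp2, 1.53 for Ifit3b, 0.94 for Oas2 and 0.68 for Oas3. Groups of 3 libraries were not tested for single libraries that stand apart.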

How the results depend on the processing

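The 7 members called higher with stimulation in each genotype stood at 7 under every alternative except the absence of a fold limit, which gave 8, and at 7 to 7 when each library was left out. For genotype, the 0 members called in control became 8 with no fold limit, and 1 with upper-quartile and 1 with median-ratio scaling. The 0 called with LPS+ATP became 8 with no fold limit, and the 0 called for the interaction became 5. By its construction, the lack of a fold limit admits smaller changes, and the cause of the move under scaling was not tested. Leaving out each library gave 0 to 0 in these 3 comparisons. Over all genes, 91 interaction terms were called positive and 180 negative. These counts were 272 and 362 with a pseudocount of 0.1, and 200 and 301 with TPM. By genotype, 87 of all genes were called lower in control and 72 with LPS+ATP. These became 154 and 140 with a pseudocount of 0.1, and 122 and 115 with TPM. Of the members' fold changes, 0 reversed a called direction. Across settings, 3 values of stimulation in wild type, 3 of genotype with LPS+ATP and 1 interaction term lost the adjusted p, all given in the report, and 7 interaction terms of Ifi205 and Mndal gained it. With the replicate block, the members called were 7 and 7 for stimulation and 0, 0 and 0 for the rest, the same counts as without it. Same-numbered libraries did not deviate together (r from -0.06 to 0.05 in 18 pairs), so the numbers did not pair the samples. Depth in reads is unknown, which limits what can be said of Ifi202b, Ifi214 and Ifi208 in control libraries.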
